A study of Mus musculus with 6 samples.

Results

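Genes of the gap junction and the intercalated disc, 10 in number, were followed in whole mouse hearts at embryonic day 16.5: Gja1, Gja5, Gjc1, Cdh2, Dsp, Pkp2, Jup, Dsg2, Dsc2 and Tjp1. They were chosen by name, and every array probe set annotated to 1 of these symbols alone was used, 28 of the 45101 on the array. Each gene was represented by the brightest of its probe sets, averaged across the 6 arrays. All 10 genes passed the intensity filter, beside 11113 tested genes of 18193 on the table. The hearts came from siblings of 2 groups, FOG-2R3K5A (3 samples) and WT (3 samples), from crosses of heterozygotes whose strain background is given as mixed C57/B6, 129 S6. Zfpm2 encodes FOG-2, a protein partner of cardiac GATA factors, and R3K5A is an allele whose amino acid changes disrupt the contact of FOG-2 with the chromatin remodeller NuRD. The labels give neither the zygosity of the mutants nor whether a replicate was 1 heart or several, so p-values measure the spread between these samples.

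Heart muscle cells are joined end to end at the intercalated disc. Connexins form gap junction channels there that pass current from cell to cell, while N-cadherin adherens junctions and desmosomes anchor the actin and intermediate filaments and carry the pull of contraction. In the mature heart both kinds of adhesive junction mix in the area composita. Mutations in the human desmosomal genes are a known cause of arrhythmogenic cardiomyopathy. How far the disc had formed in these embryonic hearts was not examined.

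No member passed the test between genotypes. Of the 10 genes, 0 were called higher or lower at an adjusted p under 0.05 (limma, Benjamini-Hochberg over all genes tested), against 1.76% of all genes tested, 1.39% higher and 0.369% lower. At an unadjusted p under 0.05 there was 1 member, Jup, against 14.7% of all genes. The genotypes did not overlap for 2 members, Jup (lower in FOG-2R3K5A hearts) and Tjp1 (higher), against 21.2% of all genes, 9.76% lower and 11.5% higher. The differences, FOG-2R3K5A minus WT in log2 intensity throughout, had a median of -0.04, beside -0.01 over all genes tested, and 7 of 10 were negative, beside 52.8% of all genes. For 8 members the 95% interval of the difference, in the brightest probe set, stayed within 1.23-fold in either direction. The intervals of Gja5 and Jup were wider. Other probe sets of Gjc1, Cdh2, Dsp and Pkp2 above the filter level gave differences outside the intervals of the brightest ones.

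Because FOG-2 acts with GATA factors, the letters upstream of 3 members are shown: the connexins Gja5 and Gja1, known in mouse as targets of cardiac transcription factors, and Jup, which had the largest difference. The sequences are the 250 bases before the gene start from RefSeq (GRCm38.p6), written 5′ to 3′ on the gene's strand. They lie at chr3:97032152-97032401 on the plus strand for Gja5, at chr10:56377050-56377299 on the plus strand for Gja1, and at chr11:100397791-100398040 on the minus strand for Jup. Capitals mark the letters GATAA (GATA factors), AAGTG (NKX2-5) or GGTGT (T-box factors), searched on both strands with no overlap among the matches.
Gja5: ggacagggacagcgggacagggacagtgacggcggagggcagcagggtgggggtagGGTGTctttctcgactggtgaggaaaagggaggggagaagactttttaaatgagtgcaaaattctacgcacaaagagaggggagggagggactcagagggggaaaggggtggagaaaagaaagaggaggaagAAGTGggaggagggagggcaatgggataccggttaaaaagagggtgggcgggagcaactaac
Gja1: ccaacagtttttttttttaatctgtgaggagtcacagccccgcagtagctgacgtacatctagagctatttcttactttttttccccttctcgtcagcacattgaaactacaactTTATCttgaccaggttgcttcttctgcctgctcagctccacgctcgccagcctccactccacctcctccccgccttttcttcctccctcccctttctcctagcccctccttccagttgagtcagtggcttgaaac
Jup: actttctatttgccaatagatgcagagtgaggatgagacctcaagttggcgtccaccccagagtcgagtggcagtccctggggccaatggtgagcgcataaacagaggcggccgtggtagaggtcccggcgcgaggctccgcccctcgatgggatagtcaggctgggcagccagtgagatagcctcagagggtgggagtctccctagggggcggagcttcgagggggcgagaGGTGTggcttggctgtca
The Gja5 window held 1 AAGTG and 1 GGTGT, the Gja1 window 1 GATAA on the reverse strand, and the Jup window 1 GGTGT. Only these exact letters were searched, so other spellings of a site, such as agatag in the Jup window, are not marked. Of the 32851 promoter windows in the table, 22.6% held GATAA, 40.7% AAGTG and 36.2% GGTGT, so such matches are common. The windows of Tjp1 and Dsp, also matched, held 1 GATAA and 1 GGTGT. Windows of Gjc1, Cdh2, Pkp2, Dsg2 and Dsc2 were not used here.

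The 6 arrays were alike in overall brightness, with median intensities of 77.5 to 78.4 in FOG-2R3K5A hearts and 77.4 to 84.1 in WT hearts. On the first principal component (44.5% of the variance) WT replicate 1 lay at 1.08, between FOG-2R3K5A hearts (-13.1 to -8.55) and WT replicates 2 and 3 (21.1 and 11.2). The log2 ratio of 3′ to 5′ Gapdh controls was -0.16 to -0.15 in FOG-2R3K5A hearts and -0.14 to -0.12 in WT hearts, without overlap. That of Actb was 0.28 to 0.29 in FOG-2R3K5A hearts and 0.24 to 0.33 in WT hearts, with overlap. Zfpm2 itself was higher in FOG-2R3K5A hearts by 0.44 (limma adjusted p = 0.0134), which does not check the labels because the allele changes amino acids. Of 6 cardiomyocyte markers, such as Tnnt2 and Myh6, 0 were called, and their summed intensity was 54009 to 54800 in FOG-2R3K5A hearts and 52043 to 54025 in WT hearts. Of 12 epicardial and mesothelial markers, 7 were called higher, against 1.39% of all genes tested. They were Krt8, Krt18, Krt19, Upk3b, Msln, Muc16 and Gpm6a. Wt1 (-0.06), Tbx18 (-0.11) and Tcf21 (-0.09) were the 3 with negative differences and were not called. The 12 markers had a sum of 8530 to 9271 in FOG-2R3K5A hearts and 6711 to 6985 in WT hearts. None of the tested conduction system (3), endothelial (6), arterial endothelial (6), fibroblast (6), smooth muscle (5), lung and airway (4), epidermal (3), erythroid (1) or leukocyte (2) markers was called. In whole hearts, fewer cells of a type and less RNA per cell cannot be told apart, and the part of these marker shifts in the members' values was not tested.

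Gja1 encodes connexin 43, the main gap junction protein of working ventricular muscle. Its probe set 1437992_x_at read 12.97, 12.96 and 12.96 in FOG-2R3K5A replicates 1, 2 and 3, against 12.83, 13.04 and 13.11 in WT replicates 1, 2 and 3. The FOG-2R3K5A hearts lay close together inside the range of the WT hearts. The difference was -0.03 (SE 0.07, 95% interval -0.18 to 0.12, adjusted p = 0.862). All 6 Gja1 probe sets were slightly lower on average in FOG-2R3K5A hearts, by differences of -0.03 to -0.10, and the genotypes overlapped in each. The probe sets read the same RNA and are not replicates. The suffix x marks probe sets that Affymetrix lists as open to cross-hybridisation, and the 2 Gja1 probe sets without it gave -0.10 and -0.07. In FOG-2R3K5A hearts the main probe set averaged 12.96 log2 units and in WT hearts 12.99, while the brightest array control averaged 13.42. Whether differences are compressed at that brightness was not tested.

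Gja5 encodes connexin 40, found in atrial muscle, the fast conduction system and arterial endothelium. Its single probe set, 1422192_at, read 6.21, 6.38 and 6.63 in FOG-2R3K5A hearts, against 6.90, 6.27 and 6.06 in WT hearts. These values sat at the filter level of 6.30, with 3 of 6 arrays at or below it, and the highest and the lowest arrays were both WT. The difference was -0.0025 (SE 0.22, 95% interval -0.51 to 0.50, adjusted p = 0.997). A change of up to 1.42-fold in either direction lies in that interval, so a moderate difference in Gja5 was not detectable here. Of 4 atrial markers, Nppa, Myl7, Sln and Myl4, 0 were called, with positive differences of 0.0070 to 0.14. Their summed intensity was 35183 to 35564 in FOG-2R3K5A hearts and 32939 to 34143 in WT hearts, and the genotypes did not overlap for 2, Nppa and Myl7, against 11.5% of all genes higher without overlap. Nppa was near the brightest array control in log2 intensity, and neither compression there nor the part of atrial tissue in the Gja5 values was tested. Of 6 arterial endothelial markers 0 were called, with differences of -0.23 to 0.23.

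Gjc1 encodes connexin 45, the early cardiac connexin that later is largely restricted to the conduction system. Probe set 1449094_at read 10.91, 10.80 and 10.94 in FOG-2R3K5A hearts, against 10.90, 11.00 and 10.92 in WT hearts, with overlap. The difference was -0.06 (SE 0.06, adjusted p = 0.697). A second probe set, 1447787_x_at, read 9.77, 9.64 and 9.67 in FOG-2R3K5A hearts, against 9.49, 9.38 and 9.30 in WT hearts. There every FOG-2R3K5A heart was above every WT heart, by a mean of 0.30 (SE 0.09), which did not pass over all probe sets (adjusted p = 0.167, limma). The main and the second probe set thus differ in sign. The second value lies outside the 95% interval of the main one (-0.20 to 0.09). The second probe set carries the suffix x, the mark of possible cross-hybridisation, and the main one does not.

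**Figure D1:**
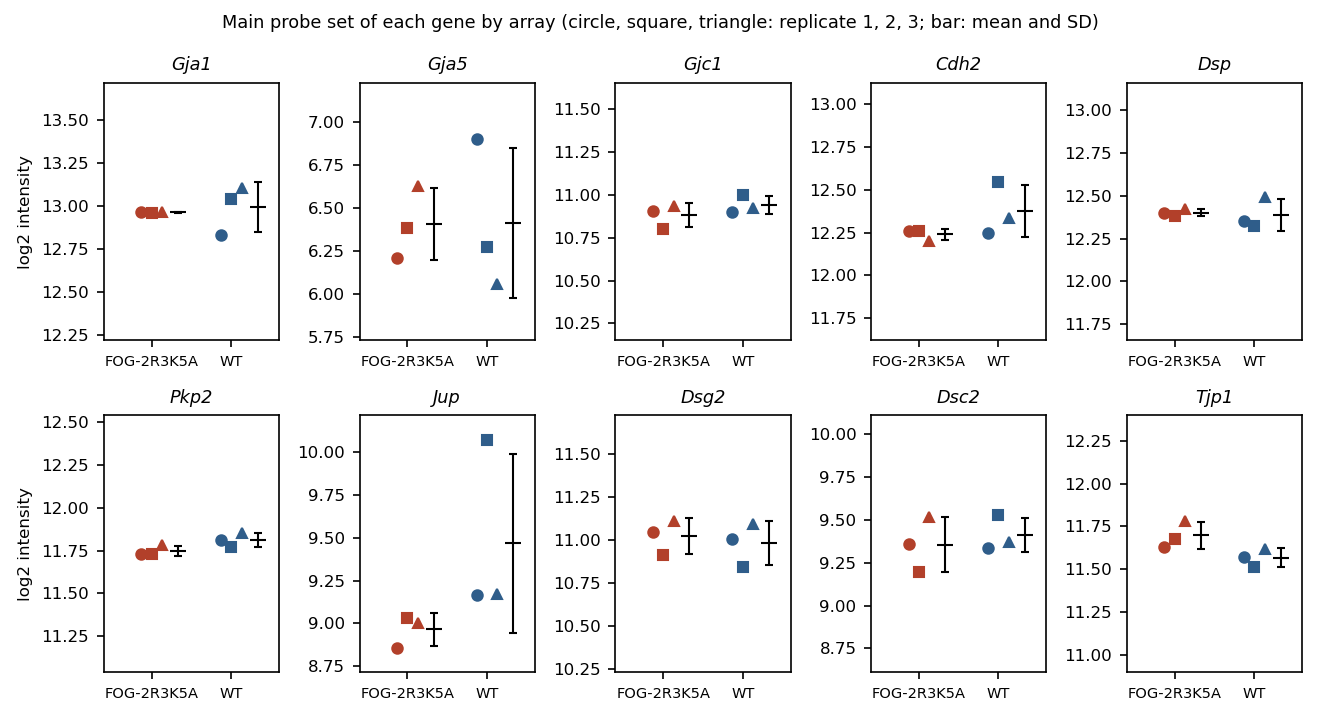
Log2 intensity of the main probe set of each gene (y axis, the same span of 1.5 log2 units in every panel) on the 3 FOG-2R3K5A and 3 WT arrays, with circles, squares and triangles for replicates 1, 2 and 3 and a bar for mean and SD. The genotypes overlap in 8 panels, and in Jup WT replicate 2 (10.07) stands above all other arrays.

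Cdh2 encodes N-cadherin, the transmembrane cadherin of the disc's adherens junctions. Probe set 1418815_at read 12.26, 12.26 and 12.20 in FOG-2R3K5A hearts, against 12.25, 12.54 and 12.33 in WT hearts. WT replicate 2 was the highest array, while WT replicate 1 lay among the FOG-2R3K5A hearts. The difference was -0.14 (SE 0.07, 95% interval -0.30 to 0.03, adjusted p = 0.416). It was -0.05 without WT replicate 2 and -0.20 without WT replicate 1, and neither passed (adjusted p = 0.741 and 0.135). A second probe set, 1449244_at, had the opposite sign (0.11, SE 0.07, adjusted p = 0.489) and lay outside the interval of the main one.

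The desmosomal cadherins Dsg2 (desmoglein 2) and Dsc2 (desmocollin 2) bridge neighbouring heart muscle cells outside the plaque. Dsg2, by probe set 1439476_at, read 11.05, 10.91 and 11.11 in FOG-2R3K5A hearts, against 11.01, 10.84 and 11.09 in WT hearts. Both genotypes spanned almost the same range, and the difference was 0.04 (SE 0.08, adjusted p = 0.844). Its 4 other probe sets above the filter level gave -0.12 to 0.03, and 1 lay below the level. Dsc2, by probe set 1426911_at, read 9.36, 9.19 and 9.52 in FOG-2R3K5A hearts, against 9.34, 9.53 and 9.37 in WT hearts. The genotypes overlapped, with a difference of -0.06 (SE 0.10, adjusted p = 0.837). The second Dsc2 probe set, 1421156_a_at, gave 0.11 (SE 0.09, adjusted p = 0.616), with FOG-2R3K5A hearts at 8.21 to 8.26 and WT hearts at 8.08 to 8.19.

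Jup encodes plakoglobin, the armadillo protein shared by desmosomes and adherens junctions. Its single probe set, 1426873_s_at, read 8.86, 9.03 and 9.00 in FOG-2R3K5A hearts, against 9.16, 10.07 and 9.17 in WT hearts. All 3 FOG-2R3K5A hearts were below all 3 WT hearts, and WT replicate 2 stood far above the other WT arrays (an intensity of 1076, against 573 and 576 in WT replicates 1 and 3 and 464 to 524 in FOG-2R3K5A hearts). The difference was -0.50 (SE 0.22, 95% interval -0.99 to -0.02), which did not pass over all genes (adjusted p = 0.322), and 1525 genes had a smaller p. Without WT replicate 2 it was -0.20 (SE 0.09, adjusted p = 0.402). The suffix s marks a probe set that can match transcripts of more than 1 gene. No other Jup probe set was there to compare. The main probe sets of Pkp2 and Dsp carry the same suffix.

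Pkp2 encodes plakophilin 2, an armadillo protein that ties plakoglobin and the cadherins to desmoplakin. Probe set 1449799_s_at read 11.73, 11.73 and 11.78 in FOG-2R3K5A hearts, against 11.81, 11.77 and 11.85 in WT hearts. The ranges overlapped narrowly and the difference was -0.06 (SE 0.05, 95% interval -0.18 to 0.05, adjusted p = 0.575). The other two Pkp2 probe sets above the filter level were also negative, at -0.14 and -0.41. The last, 1460511_at, read 8.01, 8.07 and 7.63 in FOG-2R3K5A hearts, against 8.27, 8.12 and 8.56 in WT hearts. Its genotypes did not overlap, but the difference did not pass over all probe sets (SE 0.15, adjusted p = 0.288).

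Dsp encodes desmoplakin, which links the desmosomal plaque to desmin filaments. Probe set 1435494_s_at read 12.40, 12.38 and 12.42 in FOG-2R3K5A hearts, against 12.35, 12.32 and 12.49 in WT hearts. The FOG-2R3K5A hearts lay within the WT range. The difference was 0.012 (SE 0.05, 95% interval -0.11 to 0.13, adjusted p = 0.941), an interval within 1.10-fold in either direction. The other two probe sets gave -0.02 and -0.22, with overlap, and the second of these values lies outside the interval of the main probe set.

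Tjp1 encodes ZO-1, the scaffold that binds connexin 43 at the edge of gap junction plaques. Its single probe set, 1417749_a_at, read 11.63, 11.68 and 11.78 in FOG-2R3K5A hearts, against 11.57, 11.51 and 11.62 in WT hearts. Every FOG-2R3K5A heart was above every WT heart, by a narrow margin. The difference was 0.13 (SE 0.06, 1.09-fold, 95% interval -0.0041 to 0.26) and did not pass (adjusted p = 0.354).

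**Figure D2:**
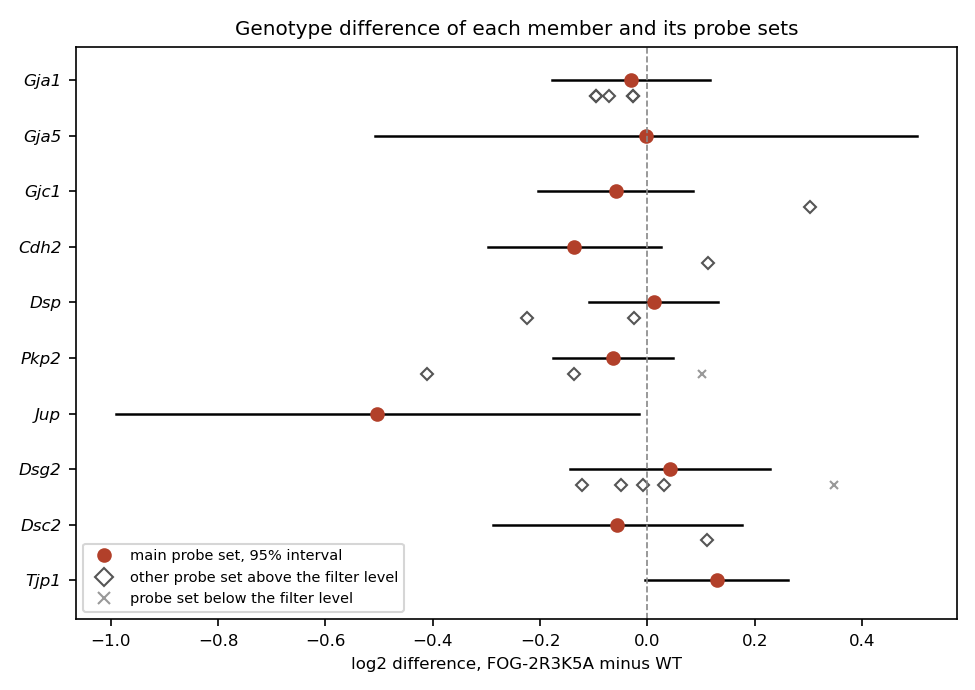
Log2 difference, FOG-2R3K5A minus WT (x axis), of each gene (y axis) with the 95% interval of its main probe set (circle and line) and its other probe sets (open diamonds above the filter level, crosses below it). The interval holds 0 for 9 of 10 genes, all but Jup, and probe sets of Gjc1 (0.30), Cdh2 (0.11), Dsp (-0.22) and Pkp2 (-0.41) above the level, and of Pkp2 (0.10) and Dsg2 (0.35) below it, lie outside the intervals of their main probe sets.

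Over all 26 member probe sets above the filter level, 0 were called, against 0.99% of all such probe sets on the array. The genotypes did not overlap for 5, against 20.3% on the array. Differences were negative for 19 of the 26, against 55.5%, and 6 of the 19 read Gja1. Within Gjc1, Cdh2, Dsp, Dsg2 and Dsc2 the probe sets above the level differed in sign. In Gja1 and Pkp2 they shared it.

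**Figure D3:**
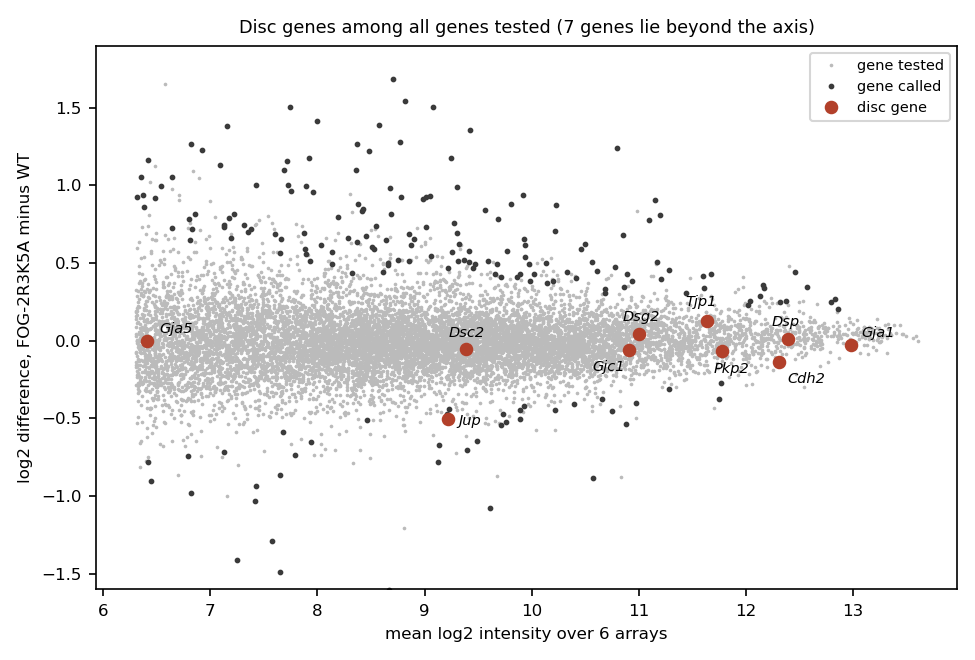
Log2 difference, FOG-2R3K5A minus WT (y axis), against mean log2 intensity over 6 arrays (x axis) for all genes tested (grey), the genes called (black) and the 10 disc genes (red), with 7 genes beyond the y axis. The disc genes lie within the cloud of genes that were not called, and Jup at -0.50 is the farthest from 0.

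Other genes of cell junctions were read in the same test from 4 lists of 73 genes, of which 63 were on the table and 47 passed the filter. Of these 47, 0 were called in either direction, 7 were lower and 1 higher at an unadjusted p under 0.05 (limma), against 6.33% lower and 8.4% higher among all genes, and the median difference was -0.01. Of 3 other connexin and pannexin genes, Gja3 (connexin 46) had -0.39 (SE 0.14, adjusted p = 0.237) and Gja4 (connexin 37, of arterial endothelium) 0.23 (SE 0.11, adjusted p = 0.387). Of 5 other desmosomal genes, the plakophilin relative Pkp4 had -0.22 (SE 0.06, adjusted p = 0.140) and Perp -0.18 (SE 0.09, adjusted p = 0.381).

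Of 20 adherens junction and area composita genes, Lmo7 had the smallest p. It read 11.92, 11.93 and 11.89 in FOG-2R3K5A hearts, against 12.03, 12.30 and 12.25 in WT hearts, without overlap. Its difference was -0.28 (SE 0.07, adjusted p = 0.0877). Ctnna3, which encodes the alpha-T-catenin of the area composita, had -0.33 (SE 0.10, adjusted p = 0.173). Of 19 scaffold and partner genes, Fxr1, an RNA-binding protein, had -0.25 (SE 0.06, adjusted p = 0.0844) and Ank2, the membrane adaptor ankyrin-B, -0.44 (SE 0.16, adjusted p = 0.232). WT replicate 1 was nearest to the FOG-2R3K5A hearts in Lmo7, Ctnna3, Fxr1 and Ank2. Without it 3 of the 47 genes were called lower, Lmo7 (-0.36), Itgb1bp2 (-0.37) and Ank2 (-0.63), with adjusted p = 0.0119, 0.0384 and 0.0239, and 0 members. In that fit 4.06% of all genes were called, and 1.57% of all genes were called lower, against 1.76% and 0.369% with all arrays. Each of the other fits that left out 1 array called 0 of the 47. Leaving out the WT array nearest to FOG-2R3K5A hearts widens these differences, so the calls are not separate support.

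Of 16 transcription factors known to act on cardiac connexin or junction genes, 14 were tested and 1 was called, against 1.76% of all genes. Tbx20, a T-box factor of heart muscle, fell by 0.38 (SE 0.08, adjusted p = 0.0461). It read 11.44, 11.56 and 11.66 in FOG-2R3K5A hearts, against 11.82, 12.05 and 11.93 in WT hearts, without overlap. The call was lost in 12 of 17 alternatives, among them 5 of the 6 fits that left out 1 array (adjusted p = 0.026 to 0.204, limma, with differences of -0.32 to -0.44). Gata6 had -0.50 (SE 0.15, adjusted p = 0.173). The genotypes overlapped for Gata4 (-0.31, SE 0.21, limma adjusted p = 0.520), Tbx5 (-0.16, SE 0.17, adjusted p = 0.686) and Nkx2-5 (-0.09, SE 0.12, adjusted p = 0.756). Of the 14, 11 were negative and 3 positive, beside 52.8% negative among all genes.

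**Figure D4:**
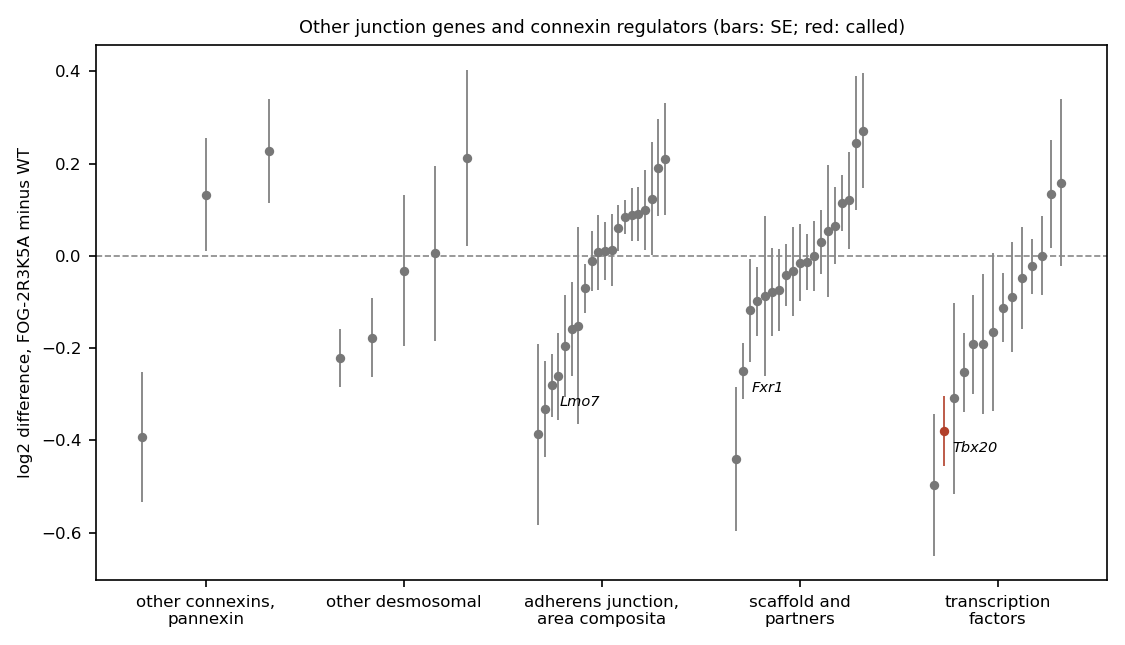
Log2 difference, FOG-2R3K5A minus WT (y axis), with SE for the tested genes of the 4 other junction lists and of the transcription factors (x axis), sorted within each list. Tbx20 (-0.38, red) is the 1 gene called, and Lmo7 and Fxr1 had adjusted p of 0.0877 and 0.0844.

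Junction genes of epithelia were read beside the disc genes because desmosomes are also epithelial. Cdh1, the epithelial cadherin, was below the filter on average and was not tested. It read 4.92, 3.96 and 7.58 in FOG-2R3K5A replicates 1, 2 and 3, against 3.82, 4.04 and 4.42 in WT hearts, so that FOG-2R3K5A replicate 3 stood apart. The summed intensity of 6 lung and airway genes was 810, 326 and 3592 in the same FOG-2R3K5A replicates, against 306 to 467 in WT hearts. Of these 6, Scgb3a2, a secretoglobin of the airway, read 9.03, 4.87 and 11.36 in FOG-2R3K5A hearts, against 4.81 to 5.40 in WT hearts. Sftpc, a surfactant protein, read 6.17, 5.80 and 9.43 in FOG-2R3K5A hearts, against 5.86 to 6.53 in WT hearts. Sftpb and Epcam had differences of -0.14 and -0.03, and Scgb1a1 and Nkx2-1 were below the filter. The main probe sets of Dsg2 and Tjp1 were highest of all 6 arrays on FOG-2R3K5A replicate 3, as were 14% of all genes. Dsg2 read 11.11 there, against 11.09 in WT replicate 3. Cdh2 was lowest on FOG-2R3K5A replicate 3, as were 23.6% of all genes. The largest gap between that array and another FOG-2R3K5A heart ranged over the 10 members from 0.0039 (Gja1) to 0.42 log2 units (Gja5), with 0.33 for Dsc2, 0.20 for Dsg2, 0.15 for Jup and Tjp1 and 0.04 for Dsp. The part of this lung gene signal in the members' values was not tested. FOG-2R3K5A replicate 2, with the lowest lung and airway sum of the FOG-2R3K5A hearts, was also set alone against 3 WT hearts. The differences of the members then ran from -0.43 (Jup) to 0.11 (Tjp1). With 1 array on that side, its spread is unknown, so this cannot show whether the lung gene signal mattered.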

How the data were processed

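Per the labels' protocols, Trizol was used on whole hearts, and 3 µg of total RNA per sample gave biotin-labelled target for Affymetrix arrays read in 1 colour. The authors deposited linear intensity values per probe set, with array medians within 0.12 log2 units. How these intensity values were summarised, and whether they were scaled between arrays, is not given in the sources used here. Detection calls were not used. Intensities were floored at 1 and log2-transformed. Probe sets with 1 symbol were used, the brightest per gene, and genes above the median of all probe set means (6.30 log2 units) were tested with limma 3.58.1 in R 4.3.3 (eBayes with an intensity trend, two-sided, Benjamini-Hochberg adjustment over all genes, called under 0.05). Probe sets were also tested singly and adjusted over all 22518 above that level. The fit was tested on simulated data. The number of arrays limits the precision.

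The members and lists were chosen with earlier results of these data known. All members were named, and of each other list the called genes or else the 2 with the smallest p. Gata4, Gata6, Tbx5, Nkx2-5, Itgb1bp2 and Cdh1 were named after their values were seen, as were the lung genes and the markers given as examples. Alternatives covered normalization, offset, filter, probe sets, variance model, threshold, replicate block, an Xist covariate and each array left out. One more, without FOG-2R3K5A replicates 1 and 3, was added after seeing the data, and the alternatives were run for Tbx20 once it had been called. Figures were drawn with matplotlib 3.10.9.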

Additional observations from a re-analysis of the deposited data

How the results depend on the processing

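No member was called under any alternative run, and the differences of Cdh2, Pkp2, Jup and Tjp1 kept their sign in all of them. The lowest adjusted p of any member was 0.135 (limma, Cdh2 without WT replicate 1). The count over all genes, 196, was 81 without the filter, 106 with the filter at the 75th percentile, 125 with the mean over probe sets, 119 without the intensity trend, 429 with array quality weights, 43 with the Xist covariate, 369 and 43 at thresholds of 0.1 and 0.01, 37 to 451 with 1 array left out, and 5 with FOG-2R3K5A replicate 2 alone, which is then assumed to vary like the WT hearts. Other junction genes called, 0 otherwise, were 3 with array quality weights (Lmo7, Pkp4 and Fxr1, all lower), 2 at a threshold of 0.1 and 0 to 3 with 1 array left out.

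Signs turned in members near 0, 22 times in 169 fits, and 0 of these passed. Gja1 had 0.012 with median centring and 0.013 with the Xist covariate, Gja5 0.047 with quantile normalization and 0.039 with centring, and Gjc1 0.12, Dsc2 0.028 and Dsp -0.079 with the mean over probe sets. Dsp had -0.024 with quantile normalization, -0.020 with array weights and -0.0067 with FOG-2R3K5A replicate 2 alone, and Dsg2 -0.015 with array weights and -0.071 with that replicate alone. With 1 array left out, differences ran from -0.11 to 0.027 for Gja1, -0.18 to 0.24 for Gja5, -0.022 to 0.064 for Dsp, -0.027 to 0.10 for Dsg2 and -0.14 to 0.026 for Dsc2. The cause was not tested.

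With the replicate number as a block, 234 genes and 0 members were called. Deviations of same-numbered samples correlated at -0.06, 0.13 and 0.41, and FOG-2R3K5A replicate 1 correlated best with WT replicate 2 (0.25), so the numbers were not taken as pairs. Precision is limited by 3 arrays per genotype, and Gja5 by its low signal.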

Other observations

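WT hearts varied more than FOG-2R3K5A hearts in many genes, the members included. The SD over WT hearts was the larger one for 7 of 10 members, beside 67% of all genes tested, and for 6 of 6 Gja1 probe sets. In the main Gja1 probe set the SD was 0.0028 in FOG-2R3K5A hearts and 0.15 in WT hearts. The other Gja1 probe sets had SDs of 0.013 to 0.070 in FOG-2R3K5A hearts and 0.10 to 0.17 in WT hearts. WT replicate 2 was the highest of the 6 arrays for 4 members (Gjc1, Cdh2, Jup and Dsc2) and the lowest for 3 (Dsp, Dsg2 and Tjp1), and over all genes it was the highest for 21.3% and the lowest for 27.9%.

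The genes whose pattern over the 6 arrays was most like that of Gja1, by Pearson r over 11112 other tested genes, were Plin4 (0.993), Tnfrsf1b (0.992) and Ppp4r3a (0.989). For Gja5 they were Crnkl1 (0.986), Mre11a (0.979) and Nup160 (0.978). With 6 points and so many genes, such values are a description of these arrays.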
